A study of Ovis aries with 36 samples.

Results

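The comparison between Grain and Hay medium at the 32 h harvest, named T8, rests on 6 of the 36 libraries of the series, 3 in each medium, chosen by their sample labels. The cells were sheep (Ovis aries) ruminal epithelial cells in culture. The ruminal epithelium lines the forestomach and absorbs the volatile fatty acids (VFAs) that rumen microbes release from feed. Before either medium was added, all cells spent 2 h without serum in DMEM/F12 with 100 nM dexamethasone, a glucocorticoid that brings cellular clocks into step. Grain medium was given with a stated VFA total of 115.78 mM, made of 71.1 mM acetate, 20.1 mM propionate, 16.0 mM butyrate, 1.7 mM valerate, 1.1 mM isobutyrate and 5.3 mM isovalerate. Hay medium was given with a stated total of 89.79 mM, made of 60.8 mM acetate, 14.6 mM propionate, 9.2 mM butyrate, 1.2 mM valerate, 1.0 mM isobutyrate and 3.0 mM isovalerate. Both media were set to pH 7.2. Sodium salts supplied the acetate, propionate and butyrate, so sodium rose with the VFAs. A culture free of added VFAs was not analysed here. The other 5 harvests were spaced by 4 h, with T0 at 24 h and T20 at 44 h. They have libraries of their own and serve to show where T8 differs. Whether replicate libraries stem from different animals or dishes is not stated in the labels, and the p-values therefore reflect no more than how far these samples vary, which may be technical variation.

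Butyrate and the other VFAs are fuels for the ruminal epithelium, and butyrate is also known as an inhibitor of histone deacetylases. Cells that cannot fold or export all their secretory proteins switch on the unfolded protein response, which raises endoplasmic reticulum (ER) chaperones, and the related integrated stress response, which raises ATF4 and its targets. Mitochondrial DNA encodes a small set of respiratory chain subunits whose transcripts are made inside the organelle, while all other subunits come from nuclear genes.

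The 6 T8 libraries held 55.2 to 68.1 M counts, in a series that spanned 52.4 to 68.1 M. Of 35223 genes, 22488 passed a filter on low counts and were tested. Levels are given in CPM, which are counts scaled to library size and not corrected for gene length, so a gene is compared between media and not with other genes. On the first principal component of the 6 libraries, which held 58.6% of the variance, the 3 Grain libraries lay between -65.01 and -58.05 and the 3 Hay libraries between 57.99 and 62.69. Mitochondrially encoded mRNAs made up 0.88% ± 0.0165 of counts in Grain and 2.85% ± 0.0227 in Hay (SD, n = 3 each; exact permutation test, two-sided, p = 0.1, the smallest that 3 against 3 allows). Long non-coding RNAs made up 1.59% ± 0.0513 and 2.27% ± 0.0219 of counts, with the same p of 0.1 by the exact permutation test.

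The labelled cell type was checked against marker genes. Transcripts of basal keratinocytes were present in both media: KRT14, a basal keratin, stood at 145, 124 and 142 CPM in the 3 Grain libraries and at 111, 121 and 112 CPM in the 3 Hay libraries. EPCAM, a surface protein of epithelia, stood at 28.1, 23.6 and 23.3 CPM in Grain and 24.2, 22.5 and 21.4 CPM in Hay, with overlapping libraries and adjusted p = 0.126. Mesenchymal transcripts were present too. The 20 fibroblast and mesenchyme markers together gave 20790 to 21670 CPM in Grain and 18430 to 19340 CPM in Hay. The 12 basal keratinocyte markers together gave 1097 to 1127 and 1268 to 1298 CPM, and such sums are not comparable between lists. The 9 tested markers of differentiated keratinocytes gave 34.3 to 39.7 CPM in Grain and 53.2 to 55.4 CPM in Hay, and 9 markers of simple epithelium gave 179.9 to 202.0 and 305.7 to 340.2 CPM. The 11 endothelial markers gave 87.6 to 96.7 CPM in Grain and 53.3 to 56.2 CPM in Hay, with no overlap. The 9 tested immune markers gave 5.66 to 5.80 and 5.97 to 6.98 CPM, with MS4A1 of B cells at 0 in all 6 libraries. In bulk RNA, fewer cells of a type and less RNA per cell cannot be told apart.

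At T8, 12766 of 22488 genes (56.8%) differed between the media at an adjusted p of at most 0.05 in edgeR's quasi-likelihood test. Of these, 6645 (29.5% of genes tested) were higher in Grain and 6121 (27.2%) were lower. With a difference of at least 2-fold in addition, 1083 genes (4.82%) were higher and 1841 (8.19%) lower. The median difference over all tested genes was -0.03 on the log2 scale. In 7204 genes (32.0%) all 3 Grain libraries lay above all 3 Hay libraries, and in 7205 (32.0%) all lay below. The counts of members in the gene lists below are to be read against these shares.

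**Figure D1:**
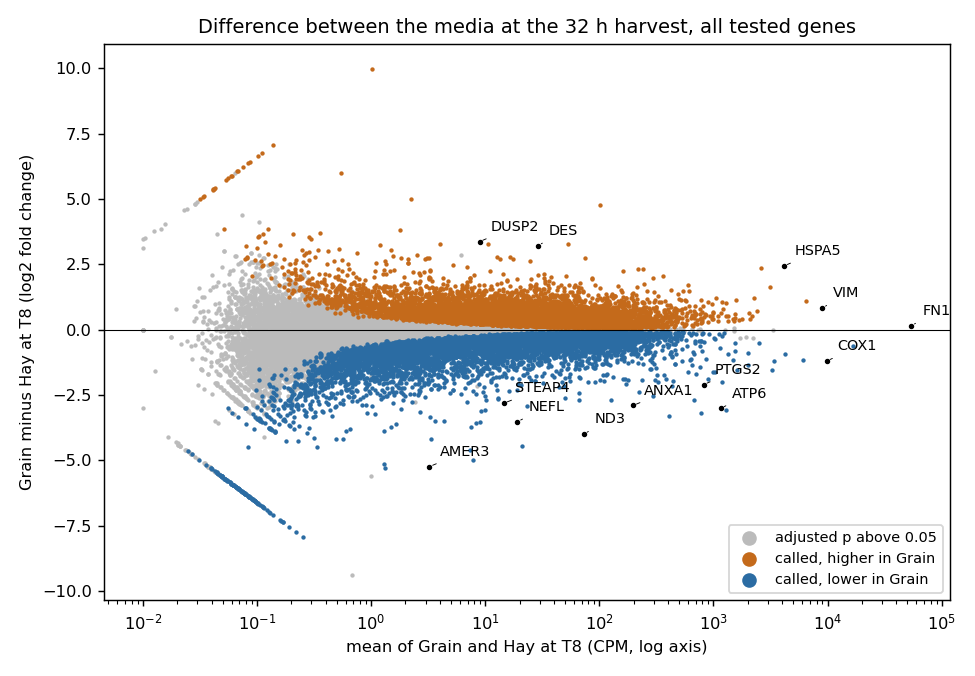
Each point is 1 of 22488 tested genes, with its mean CPM over both media at T8 on a log axis and the fitted log2 difference, Grain minus Hay, on the vertical axis. Orange marks 6645 genes called higher in Grain and blue 6121 called lower; HSPA5 stands at 2.44 and ND3 at -3.99, and the diagonal lines at the left are genes with reads in 1 medium only.

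ER chaperones were among the strongest rises in Grain at T8. HSPA5, the main ATP-dependent chaperone of the ER lumen, stood at 7187, 7059 and 6779 CPM in the Grain libraries and at 1356, 1261 and 1260 CPM in the Hay libraries. It was 5.42-fold higher (log2 difference 2.44 ± 0.040 SE, adjusted p = 8.54e-34), with no overlap between the media. HSP90B1, the ER paralogue of HSP90, rose 5.08-fold, from 826 to 917 CPM in Hay to 4208 to 4549 CPM in Grain. HERPUD1, part of the machinery that hands misfolded proteins to the proteasome, rose 4.96-fold, from 78.9 to 82.7 CPM to 393 to 405 CPM. Of 24 genes on the list of unfolded protein response genes and ER chaperones, 15 were higher in Grain, 5 were lower and 4 were not called, with a median of 0.51 against -0.03 over all genes. The rise was uneven: CALR, a calcium-binding chaperone, rose by 0.92 and CRELD2 by 1.30, while the difference in the transcription factor XBP1 was 0.08 (adjusted p = 0.10) and that in PDIA3, a disulfide isomerase, 0.02 (adjusted p = 0.732). Among the 5 lower genes were DNAJB9, at -0.12, and CREB3L2, at -0.60.

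Integrated stress response genes were higher in 22 of 29 cases, lower in 4 and not called in 3, with a median of 0.50. The largest fitted rise of the named genes belonged to DDIT3, which encodes the transcription factor CHOP. It stood at 195, 196 and 200 CPM in Grain and at 1.18, 10.6 and 10.1 CPM in Hay, a log2 difference of 4.78 ± 0.55 (SE, adjusted p = 1.67e-09). DDIT3 overlaps the annotated genes LOC541600 and MARS1, and its reads were shared with LOC541600 in unequal parts. In Hay library 1, 86 counts went to DDIT3 and 1361 to LOC541600, whereas Hay library 2 had 741 and 360, and Hay library 3 had 657 and 382. The sum of both was 292, 294 and 298 CPM in Grain and 19.8, 15.7 and 16.0 CPM in Hay, so the media stayed apart and the Hay libraries came close together.

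Other members of the same response moved by smaller amounts. ATF4, the central transcription factor of the response, which overlaps 2 annotated LOC genes, stood at 303, 293 and 299 CPM in Grain and 182, 189 and 189 CPM in Hay (log2 difference 0.68). SLC7A11, the cystine and glutamate exchanger, rose by 1.09, from 12.8 to 13.3 CPM to 26.9 to 28.3 CPM. SLC7A1, a cationic amino acid transporter, rose by 1.24, ATF3 by 0.91 and ASNS, asparagine synthetase, by 0.56. FGF21, a secreted stress hormone, stood at 2.47, 2.34 and 3.16 CPM in Grain and 0.411, 0.641 and 0.584 CPM in Hay, a difference of 2.28 (adjusted p = 6.14e-11). DDIT4, an inhibitor of the kinase complex mTORC1, went the other way and fell by 1.47.

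Immediate early genes moved in both directions. Of 27 tested, 14 were higher in Grain, 8 were lower and 5 were not called, with a median of 0.23. MAFF, a small Maf transcription factor, stood at 19.1, 17.8 and 20.9 CPM in Grain and 2.34, 1.72 and 1.89 CPM in Hay, a 9.65-fold rise (log2 difference 3.27 ± 0.13 SE, adjusted p = 1.47e-22). EGR1, a zinc finger factor induced by growth factors, stood at 29.4, 29.8 and 26.9 CPM against 4.45, 3.9 and 4.1 CPM, a 6.90-fold rise. NR4A1, an orphan nuclear receptor, rose 4.09-fold and JUND 3.44-fold, and the libraries of the media did not overlap for either. FOSL2, another AP-1 subunit, fell instead, from 267, 265 and 266 CPM in Hay to 71.8, 72.4 and 69.8 CPM in Grain. MYC was 3.81-fold and IER3 3.99-fold lower in Grain.

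Negative feedback genes of the MAP kinases rose more often than they fell: 11 of 17 were higher, 4 lower and 2 not called, with a median of 0.42. DUSP2, a nuclear phosphatase that switches off MAP kinases, stood at 16.7, 16.1 and 16.0 CPM in Grain and 2.07, 0.998 and 1.63 CPM in Hay, a 10.4-fold rise (log2 difference 3.37 ± 0.17 SE, adjusted p = 4.55e-19). DUSP6, the phosphatase that acts on ERK, rose by 0.88, and its relative DUSP1 fell by 0.82.

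Contractile genes formed another group with large rises. DES, the muscle intermediate filament desmin, stood at 56.4, 50.6 and 50.8 CPM in Grain and 5.01, 5.71 and 6.29 CPM in Hay, a 9.29-fold rise (adjusted p = 4.81e-27). ACTG2, an actin of visceral smooth muscle, stood at 45.6, 41.5 and 39.4 CPM against 7.10, 7.10 and 6.38 CPM. Its reads may be shared with the overlapping LOC105607906 and with other actin genes. TPM2, a tropomyosin, rose 4.80-fold and TAGLN, which binds actin, 3.21-fold. Of the 12 smooth muscle and myofibroblast markers 8 were higher, 3 were lower and 1 was not called, with a median of 0.74. The lower ones included ACTA2, smooth muscle alpha-actin and the usual marker of myofibroblasts, at 64.8, 63.6 and 62.4 CPM in Grain and 99.0, 91.9 and 94.0 CPM in Hay (log2 difference -0.58), and CALD1, at -1.04. Summed over the list, these markers gave 1070 to 1157 CPM in Grain and 931.3 to 989.7 CPM in Hay, and the part of such cells in the result was not tested.

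Among TGF-beta pathway genes, 8 of 24 were higher and 12 were lower, with a median of -0.11, and the ligands parted. TGFB1, which overlaps CCDC97, stood at 396, 367 and 380 CPM in Grain and 116, 113 and 113 CPM in Hay, a rise of 1.74. TGFB2 fell by 2.61, from 88.9, 84.0 and 84.8 CPM in Hay to 15.2, 14.3 and 12.7 CPM in Grain. LTBP2, a matrix protein of the latent TGF-beta binding family, rose by 1.36, and INHBA, a subunit of activin, fell by 1.19.

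The remaining genes among the 12 largest rises have unlike roles. CALCB, a calcitonin gene-related peptide, stood at 21.5, 21.1 and 23.7 CPM in Grain against 3.04, 3.39 and 3.26 CPM in Hay. IL11, a cytokine of the interleukin 6 family, stood at 22.0, 23.8 and 24.8 CPM against 3.86, 3.21 and 3.61 CPM. TONSL, which helps to repair broken replication forks, was 6.49-fold higher at low levels, with 4.44 to 5.98 CPM in Grain. SCRG1 and PRG4, the latter encoding the lubricating protein of joints, were 5.59-fold and 5.25-fold higher, and both overlap another annotated gene (SAP30 and TPR).

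**Figure D2:**
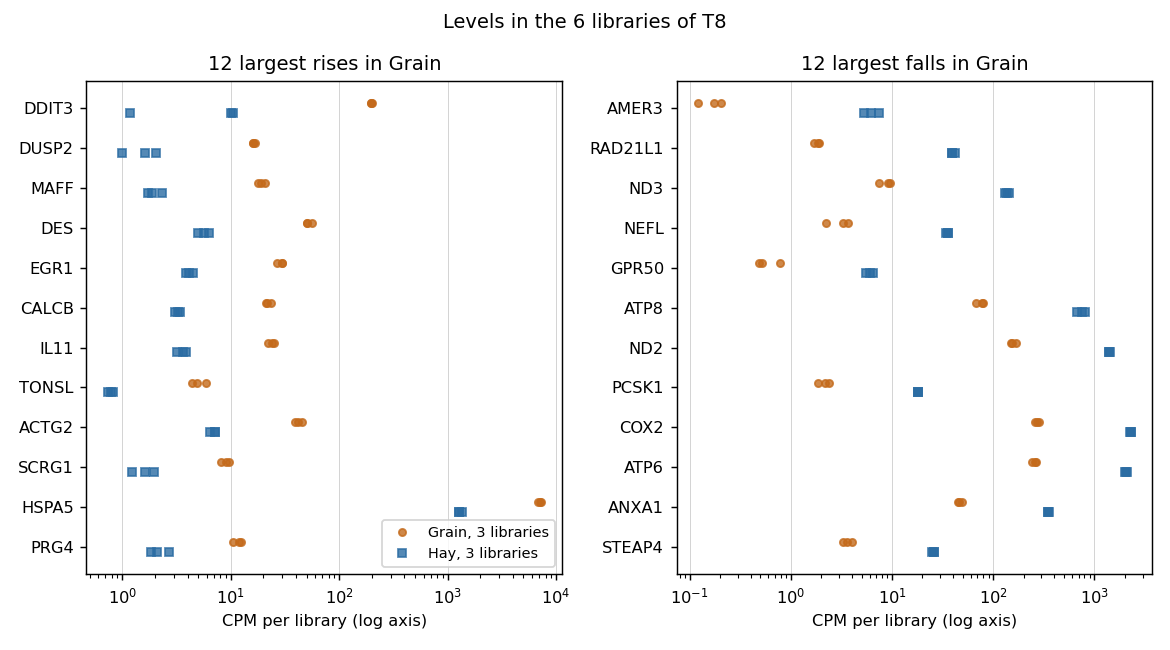
CPM on a log axis in each of the 6 T8 libraries, with circles for Grain and squares for Hay, for the 12 named genes with the largest rises (left) and the 12 with the largest falls (right). The genes were chosen with the libraries of the media apart. DDIT3 has 1 Hay library at 1.18 CPM below the other 2 at 10.6 and 10.1.

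Mitochondrially encoded mRNAs were the group with the largest fall. All 13 were lower in Grain, where 27.2% of all tested genes were lower, and their median difference was -1.96. ND3, a subunit of complex I, stood at 7.38, 9.63 and 9.04 CPM in Grain and 132, 144 and 138 CPM in Hay, which is 15.9-fold lower (log2 difference -3.99 ± 0.080 SE, adjusted p = 4.98e-31). COX2, here the mitochondrial subunit of cytochrome c oxidase and not a prostaglandin synthase, stood at 284, 274 and 259 CPM against 2272, 2298 and 2292 CPM. ATP6, a subunit of ATP synthase that overlaps ATP8 in the genome, stood at 265, 261 and 244 CPM against 2126, 2000 and 2074 CPM. The falls were unequal within the group: ND2 was 8.99-fold lower, ND1 3.88-fold, CYTB of complex III 3.32-fold, and COX1 2.30-fold, from 13640, 13810 and 13770 CPM to 6083, 6008 and 5854 CPM. COX1 lost more CPM than any other gene called lower and overlaps an annotated transfer RNA.

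Nuclear genes for the respiratory chain were split. Of 17 tested, 7 were higher in Grain, 8 were lower and 2 were not called, with a median of -0.05. NDUFS3, a complex I subunit, rose by 0.73 and NDUFV2, another, fell by 0.79. SDHA, the catalytic subunit of complex II, was lower by a small margin, at 82.3, 80.2 and 83.0 CPM in Grain and 99.1, 103 and 99.0 CPM in Hay.

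The other genes among the 12 largest falls came from no single group. AMER3, a relative of the Wnt regulator AMER1, stood at 0.204, 0.121 and 0.172 CPM in Grain and 6.18, 7.50 and 5.27 CPM in Hay (log2 difference -5.24 ± 0.26 SE, adjusted p = 2.22e-19). RAD21L1, a cohesin subunit of meiosis, stood at 1.70, 1.91 and 1.87 CPM against 39.3, 38.8 and 42.4 CPM, and it overlaps LOC114117605. NEFL, the light chain of neurofilaments, stood at 2.25, 3.71 and 3.27 CPM against 34.4, 35.4 and 36.0 CPM. PCSK1, a convertase of prohormones, was 8.42-fold lower and GPR50, an orphan relative of the melatonin receptors, 10.1-fold lower. ANXA1, an annexin that glucocorticoids induce, fell 7.45-fold, from 345, 354 and 346 CPM to 48.7, 45.3 and 46.4 CPM, and overlaps LOC105607837. STEAP4, a metalloreductase of the cell membrane, fell 7.02-fold.

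Inflammatory genes were lower in 12 of 25 cases, higher in 5 and not called in 8, with a median of -0.50. CCL20, a chemokine for lymphocytes, stood at 19.1, 16.6 and 17.3 CPM in Grain and 123, 117 and 104 CPM in Hay, a fall of 2.70 on the log2 scale (adjusted p = 4.29e-21). PTGS2, the inducible prostaglandin synthase, stood at 319, 304 and 310 CPM against 1347, 1304 and 1344 CPM. CXCL8, which attracts neutrophils, was 4.03-fold and IL1A 4.01-fold lower. IL11 was an exception, as described above, as was NFKB2, which rose by 1.09.

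Of 25 interferon response genes tested, 10 were lower in Grain, 3 were higher and 12 were not called, with a median of -0.37. MX1, an antiviral GTPase, fell by 1.68, from 81.7, 85.8 and 84.4 CPM in Hay to 28.0, 25.3 and 25.3 CPM in Grain, with no overlap between the media. IFIT1 fell by 1.84. USP18, which restrains interferon signalling, was higher by 0.51.

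Heat shock, NRF2 and osmotic stress genes were lower in Grain more often than higher. Of 20 heat shock genes, 13 were lower and 6 higher, with a median of -0.45. HSPA1A, the inducible cytosolic HSP70, stood at 68.8, 65.1 and 71.7 CPM in Grain and 240, 259 and 259 CPM in Hay (log2 difference -1.88), while HSP90AB1 rose by 1.48. HSPA1A overlaps HSPA1L and has near-identical copies between which reads may be split. Among 25 NRF2 antioxidant genes 13 were lower and 8 higher, with a median of -0.32. HMOX1, heme oxygenase, fell 4.16-fold, from 46.4, 53.8 and 55.2 CPM to 11.7, 11.8 and 13.8 CPM, and FTH1, the heavy chain of ferritin, fell 2.55-fold. Osmotic stress genes were lower in 10 of 15 cases and higher in 5. Among them SGK1, a kinase that also responds to glucocorticoids, stood at 140, 129 and 125 CPM in Grain and 510, 525 and 527 CPM in Hay, and SLC38A2, an amino acid transporter induced by hypertonicity, fell by 1.10.

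Glucocorticoid targets bear on the dexamethasone that all cells had received. Of 18 tested, 10 were lower in Grain, 3 were higher and 5 were not called, with a median of -0.31. SGK1 is on this list as well, and GLUL, glutamine synthetase, fell by 1.02. FKBP5 did not pass the test, at -0.06. Of 12 genes known to rise with histone deacetylase inhibitors, 6 were lower in Grain, 4 were higher and 2 were not called. KLF2 rose by 2.08 and TXNIP fell by 1.62.

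Genes of translation rose together. All 44 ribosomal protein genes tested were higher in Grain, where 29.5% of all tested genes were higher, with a median of 0.64 and a range from 0.33 to 1.22. RPS9 stood at 152, 153 and 158 CPM in Grain and 64.4, 69.2 and 65.7 CPM in Hay, and RPL15 at 240, 227 and 246 CPM against 117, 124 and 122 CPM. Ribosomal protein genes have many processed copies, and RPS9 overlaps LOC105602100, so reads can be split between them. EEF1A1, an elongation factor, rose 2.12-fold, from 4235, 4083 and 4089 CPM to 8883, 8828 and 8556 CPM. Of 31 proteasome genes, 11 were higher and 11 lower.

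Cholesterol synthesis genes rose in 16 of 21 cases and fell in 3, with a median of 0.46. INSIG1, an ER sensor that is itself a target of the sterol-regulated factor SREBP, rose by 1.61, from 32.2, 33.2 and 33.5 CPM to 101, 97.0 and 104 CPM. MSMO1, a sterol oxidase of the pathway, rose by 0.94.

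Genes of mitosis and DNA replication were mostly higher in Grain. Of 30 genes of mitosis 27 were higher, none was lower and 3 were not called, with a median of 0.81. With DESeq2 size factors in place of TMM scaling, 1 gene of this list was called lower. TOP2A, the topoisomerase of dividing cells, stood at 56.8, 57.7 and 56.3 CPM in Grain and 34.9, 32.3 and 32.6 CPM in Hay. MKI67, the proliferation marker Ki-67, stood at 3.49, 4.53 and 4.25 CPM against 0.918, 1.40 and 1.25 CPM. Of 35 DNA replication genes 26 were higher and 2 lower, with ORC6, a subunit of the origin recognition complex, rising by 1.96. CDK inhibitors and p53 targets were lower in 9 of 18 cases and higher in 3. CDKN1A, the inhibitor p21, fell by 0.87 and CCND1, cyclin D1, by 1.12, while CCNG1, a cyclin induced by p53, rose by 2.04.

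Matrix genes moved in both directions. Of 33 tested, 21 were higher in Grain and 9 were lower, with a median of 0.35. MMP14, a membrane-bound matrix protease, rose 4.33-fold and TNC, tenascin C, which overlaps LOC121818580, 3.99-fold. FN1, fibronectin, stood at 57400, 57330 and 56580 CPM in Grain and 52510, 50260 and 51100 CPM in Hay, which is 1.11-fold higher and, by its abundance, the largest gain in CPM among called genes. COL5A2 rose by 1.13, yet both chains of type I collagen fell. COL1A2 stood at 2965, 2841 and 2895 CPM in Grain and 5597, 5573 and 5430 CPM in Hay, and the small proteoglycan DCN fell by 0.84.

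Other abundant transcripts also differed. VIM, which encodes vimentin, an intermediate filament of mesenchymal cells, stood at 11790, 11400 and 11420 CPM in Grain and 6671, 6576 and 6238 CPM in Hay, a 1.78-fold rise. SPP1, the secreted phosphoprotein osteopontin, fell 1.52-fold, from 20690, 20060 and 19880 CPM to 13390, 13130 and 13330 CPM. ANXA2, an annexin that overlaps LOC121819971, fell 2.95-fold. Fibroblast and mesenchyme markers had no common direction: 8 of 20 were higher, 9 lower and 3 not called, with a median of 0.00.

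Epithelial markers were more often lower than higher in Grain. Of 12 basal keratinocyte markers 7 were lower and 4 higher, with a median of -0.36. KRT5, a basal keratin, stood at 28.9, 25.7 and 27.9 CPM in Grain and 48.3, 52.5 and 44.9 CPM in Hay. Of 9 markers of simple epithelium 7 were lower and none was higher. KRT8 stood at 32.2, 30.1 and 32.9 CPM in Grain and 93.6, 93.2 and 84.1 CPM in Hay, and ELF3, an epithelial transcription factor, fell by 1.80. Of 9 markers of differentiated keratinocytes 3 were lower, 1 was higher and 5 were not called, and the squamous keratin KRT13 fell by 1.07. Among 25 junction genes 14 were lower and 5 higher, with CTNNB1, beta-catenin, at 141, 142 and 142 CPM against 286, 287 and 288 CPM. The share of each cell type in the cultures was not measured, and its part in these differences was not tested.

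Genes that handle the VFAs themselves were more often lower than higher in the medium that held more of them. Of 25 genes of VFA and acid transport 12 were lower and 6 higher, with a median of -0.19. SLC16A1, the monocarboxylate transporter MCT1, stood at 80.1, 80.6 and 73.1 CPM in Grain and 132, 132 and 136 CPM in Hay (log2 difference -0.78). CA2, a cytosolic carbonic anhydrase, went the other way, at 23.6, 23.1 and 24.1 CPM against 10.6, 8.76 and 8.70 CPM. Of 31 genes of VFA activation, catabolism and ketogenesis 17 were lower and 6 higher, with a median of -0.21. ACSS3, a mitochondrial acyl-CoA synthetase, stood at 0.456, 0.471 and 0.0688 CPM in Grain and 2.07, 2.38 and 1.95 CPM in Hay, and 1 Grain library lay well below the other 2.

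Glycolytic genes rose in 11 of 22 cases and fell in 6. HK2, a hexokinase, rose by 0.90 and LDHA, a subunit of lactate dehydrogenase, fell by 0.98. Hypoxia targets were split, with 9 of 21 higher and 9 lower, VEGFA at 0.88 and PLOD2, a collagen lysyl hydroxylase, at -1.32. Lysosome and autophagy genes were higher in 12 of 25 cases and lower in 8, with WIPI1, an autophagy protein, rising by 1.67. Of 11 endothelial markers 4 were higher and 4 lower, and of 9 immune markers 2 were higher and 2 lower.

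Core clock genes moved in both directions at T8: of 18 tested, 6 were higher in Grain, 4 lower and 8 not called. BMAL1, the positive arm of the clock, stood at 73.4, 73.8 and 76.8 CPM in Grain and 40.5, 40.7 and 39.8 CPM in Hay, a rise of 0.89. PER2, a repressor, stood at 2.74, 2.37 and 2.68 CPM against 4.62, 4.30 and 4.90 CPM, a fall of 0.83. CLOCK, the partner of BMAL1, did not pass the test, at 0.01. Of 15 clock output genes 9 were higher and 3 lower.

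**Figure D3:**
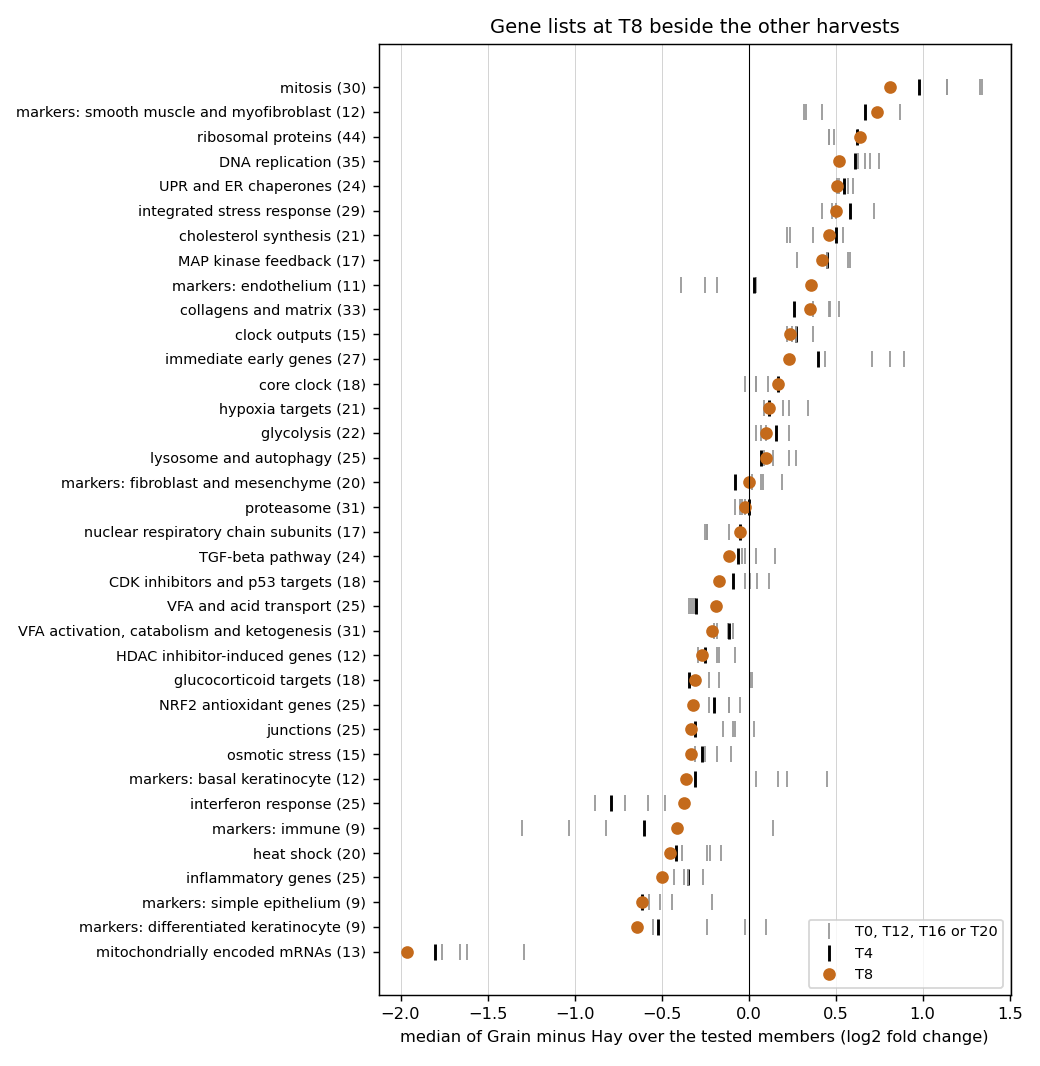
Median log2 difference, Grain minus Hay, over the tested members of each gene list (number in brackets), with an orange circle for T8, a black tick for T4 and grey ticks for the other 4 harvests. Mitochondrially encoded mRNAs stand lowest, at -1.96, and mitosis highest, at 0.81, where the T8 circle lies to the left of all 5 ticks.

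What set T8 apart from the other harvests was tested in the same fit, as the T8 difference minus the mean difference of the other 5 harvests, here called the departure of T8. It passed the test in 5301 genes (23.6%), 2667 of them with a positive value (11.9%) and 2634 with a negative value (11.7%). Without T12 among the reference harvests, 1754 genes had a positive value that passed. Many calls at T8 were common to all harvests: 4726 of the 6645 genes called higher at T8, and 4037 of the 6121 called lower, were called in the same direction at every other harvest. T8 had the lowest number of called genes of the 6 harvests, 12766, against 12987 at T4, 13238 at T20, 14108 at T16, 14127 at T0 and 14463 at T12; these numbers were not tested against each other.

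The T8 difference was close to that at T4 and far from that at T12. Against T4 it differed in 4 genes (0.0178%), with 1917 genes at an unadjusted p under 0.05. Against T20 it differed in 2520 genes (11.2%), against T0 in 3625 (16.1%), against T16 in 5555 (24.7%) and against T12 in 7303 (32.5%). The median absolute change of the difference was 0.13 on the log2 scale from T4, 0.20 from T20, 0.22 from T0, 0.27 from T16 and 0.33 from T12. In 4084 of the 5301 genes (77.0%) the T4 difference was nearest to that of T8, and in 3519 (66.4%) the T12 difference was farthest. Hence what follows describes T8 against the mean of the other 5, and not against T4.

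Libraries of the same medium were also compared in pairs. The chi-square per degree of freedom between 2 libraries of counts, which is near 1 for sampling noise alone, was 6.22 to 12.8 among the Grain T8 libraries, 10.3 to 25.0 between Grain T8 and T4 libraries and 131 to 153 between Grain T8 and T12 libraries. In Hay it was 5.16 to 8.70 within T8, 10.5 to 22.2 against T4 and 75.7 to 87.0 against T12. No pair of T8 libraries matched within sampling noise.

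**Figure D4:**
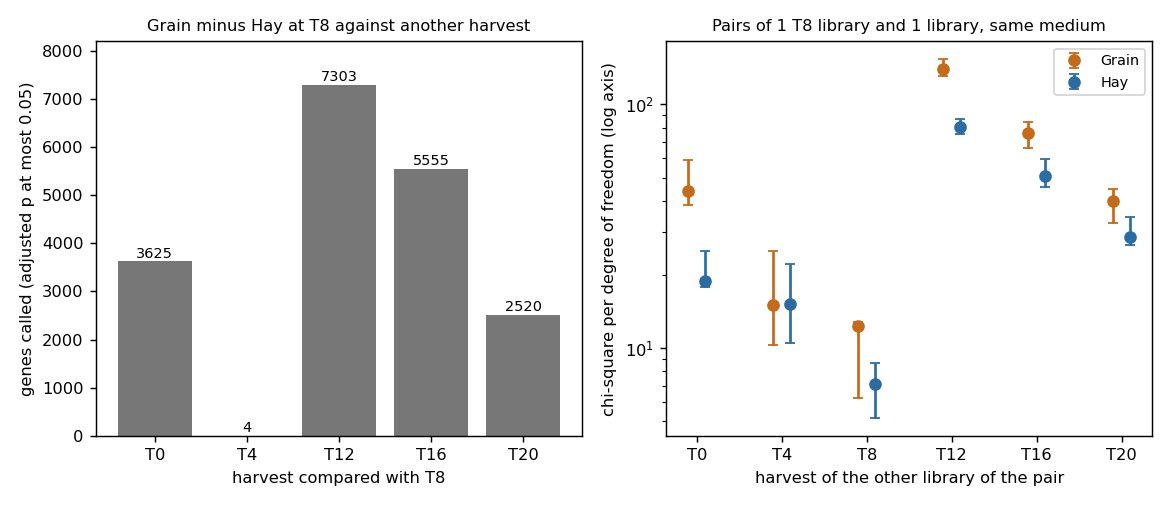
Left, the number of genes whose Grain minus Hay difference at T8 differs from that at each other harvest at an adjusted p of at most 0.05. Right, the chi-square per degree of freedom on a log axis for pairs of 1 T8 library with another library of the same medium, as the median with the lowest and highest pair. Of the other harvests, T4 has the median closest to that within T8 and T12 the highest. The T4 pair values overlap those within T8 in Grain and lie above them in Hay.

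The T4 and T8 differences come from separate libraries, and the 4 genes that passed the test between them were TAGLN, CH25H, IL1A and MAT2A. CH25H and MAT2A were chosen after their values were seen. TAGLN was higher in Grain by 1.68 at T8 and by 1.23 at T4 (adjusted p = 0.00437 for the change). CH25H, which makes 25-hydroxycholesterol, was lower by a smaller margin at T8, -1.05 against -1.57 (adjusted p = 0.00437). IL1A went from -1.70 at T4 to -2.00 at T8 (adjusted p = 0.0326). MAT2A, which makes S-adenosylmethionine, went from -0.09 to -0.35 (adjusted p = 0.0326).

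Libraries of both media moved. Against the other 5 harvests of its own medium, T8 differed in 9102 genes in Grain (40.5%) and in 5269 in Hay (23.4%). Against T4 of the same medium alone, T8 differed in 730 genes in Grain (3.25%) and in 110 in Hay (0.489%). Of the 5301 genes with a T8 difference unlike the mean of the other harvests, 2804 passed the test within Grain only, 921 within Hay only, 1399 in both and 177 in neither.

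Genes with a positive value were led by GAL, which encodes the neuropeptide galanin. It stood at 15.9, 16.2 and 16.5 CPM in the Grain T8 libraries and 12.9, 15.8 and 12.4 CPM in the Hay T8 libraries, a difference of 0.24 that did not pass the test at T8 (adjusted p = 0.0679). At the other harvests the GAL difference averaged -1.19, from -0.20 at T4 to -2.19 at T12, so that T8 stood 1.43 ± 0.13 (SE) above that mean (adjusted p = 4.27e-11). The shift lay in Grain, where T8 was 1.53 above the other Grain harvests, against 0.10 in Hay (adjusted p = 0.47).

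MMP1 encodes interstitial collagenase. Its 3 Grain libraries of T8 held 154, 155 and 145 CPM and its Hay libraries 274, 298 and 290 CPM. The gap of -0.93 was smaller than at any other harvest, where it ran from -2.82 to -1.29 (departure 1.24, adjusted p = 1.1e-16). STEAP4 was also less far below Hay than elsewhere, at -2.81 against a mean of -4.17. CEBPD, a transcription factor and one of the glucocorticoid targets, was lower by 0.44 at T8 and by a mean of 1.45 at the other harvests.

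GCNT3, a glycosyltransferase of mucins, and EYA4, a transcriptional coactivator, had differences of 0.50 and 0.41 at T8 against means of -0.73 and -0.77. Both were therefore higher in Grain at T8 and lower on average at the other times. At T4, however, the libraries of the media overlapped for both. GCNT3 stood there at 5.636, 5.449 and 5.113 CPM in Grain and 5.466, 4.741 and 4.87 CPM in Hay. EYA4 stood at 6.9, 6.031 and 4.976 CPM against 6.291, 5.852 and 6.189 CPM. ARL11 and RAD21L1 were lower in Grain throughout, and least so at T8. FAM227B was level between the media at T8, at -0.09 (adjusted p = 0.54), and lower on average elsewhere, at -1.22, and it overlaps FGF7 and GALK2.

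In ACTG2 and DUSP2 the rise itself was larger at T8 than on average at the other harvests. In neither did the T8 difference pass the test against T4. ACTG2 differed by 2.62 at T8 and by a mean of 1.34 elsewhere (departure 1.28 ± 0.081 SE, adjusted p = 1.07e-14). The shift in ACTG2 was larger in Hay, where the T8 libraries stood 2.24 below the other Hay harvests, than in Grain, where they stood 0.96 below. DUSP2 differed by 3.37 at T8 against a mean of 2.19, with a shift of 0.99 in Grain and of -0.19 in Hay (adjusted p = 0.40). TAGLN, TPM2 and MYL9, a light chain of myosin, likewise had larger rises at T8 than on average elsewhere, by 1.06, 0.80 and 0.49. At T4, DUSP2 stood at 13.42, 14.94 and 15.23 CPM in Grain and 2.013, 1.393 and 1.272 CPM in Hay. ACTG2 stood there at 48.19, 50.98 and 55.54 CPM against 11.28, 10.98 and 12.01 CPM.

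Negative values belonged first to linker histones. H1-2 stood at 37.0, 31.3 and 34.2 CPM in Grain and 41.1, 40.6 and 39.2 CPM in Hay at T8, a difference of -0.24, whereas its difference averaged 1.11 at the other harvests (departure -1.35 ± 0.11 SE, adjusted p = 1.24e-11). Its call at T8 was marginal (adjusted p = 0.0458) and was lost when any 1 of 5 T8 libraries was left out, with adjusted p from 0.0587 to 0.196. H1-6 differed by -0.54 at T8 and by a mean of 0.73 elsewhere, and H1-4 by 1.44 and 2.50. At T4 the libraries of the media overlapped for H1-2 and H1-6. H1-2 stood there at 37.9, 43.89 and 52.21 CPM in Grain and 38.45, 38.62 and 37.3 CPM in Hay. H1-6 stood at 52.26, 50.98 and 64.65 CPM against 67.83, 63.5 and 58.41 CPM. Linker histone genes resemble each other in sequence, H1-6 overlaps LOC101111915, and reads can be split between copies.

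PTGS2 and CCL20, both on the inflammatory list, had negative values too. PTGS2 was lower in Grain by 2.1 at T8 and by a mean of 1.06 elsewhere, from -1.75 at T4 to -0.35 at T12 (departure -1.04, adjusted p = 4.35e-16). The shift lay in Grain, at -0.97, while Hay T8 stood 0.06 from the other Hay harvests (adjusted p = 0.29). CCL20 was lower by 2.70 against a mean of 1.53, with shifts of -0.53 in Grain and 0.65 in Hay. PTGS2 overlaps LOC121816051.

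Some genes had a T8 difference opposite in sign to the mean of the other harvests. VCAN, the matrix proteoglycan versican, stood at 354, 340 and 330 CPM in Grain and 590, 580 and 571 CPM in Hay at T8, a difference of -0.77, against a mean of 0.19 elsewhere, -0.56 at T4 and 0.91 at T12 (departure -0.96 ± 0.053 SE, adjusted p = 3.71e-16). KRT5 was lower by 0.82 at T8 and on average 0.25 higher at the other harvests, with -0.49 at T4, and with Grain T8 standing 1.63 and Hay T8 0.56 below the other harvests of their medium. PTMA, prothymosin alpha, and the RNA-binding proteins SFPQ and HNRNPA1 differed by -0.60, -0.31 and -0.17 at T8 and by 0.13, 0.38 and 0.42 on average elsewhere. Their T4 differences were -0.50, -0.08 and 0.03. HNRNPA1 overlaps NFE2. In all, 489 of 22488 genes (2.17%) were called in both tests with a T8 difference opposite in sign to the mean of the others.

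The last of the named negative genes were MEDAG, LRRC58, TCIM and TET1. MEDAG, named for a role in fat cell formation, differed by 0.15 at T8 (adjusted p = 0.174) and by a mean of 1.37 elsewhere. LRRC58 differed by 0.14 against 1.14, and its T8 call was lost with DESeq2 (adjusted p = 0.133), with DESeq2 size factors (0.145), without Grain library 2 (0.175) and without Hay library 2 (0.113). TCIM was lower by 0.86 at T8 and on average 0.13 higher over the other harvests. At T4 it was lower in Grain as well, at 36.55, 37.99 and 39.27 CPM against 59.54, 60.52 and 58.37 CPM in Hay. TET1, an enzyme that oxidises methylcytosine, stood at 5.69, 9.31 and 6.86 CPM in Grain and 8.23, 9.25 and 14.4 CPM in Hay at T8, with overlapping libraries. Its T8 call (adjusted p = 0.0096) was lost without Grain library 1 (0.0919) or without Hay library 3 (0.229), and it overlaps 3 LOC genes.

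**Figure D5:**
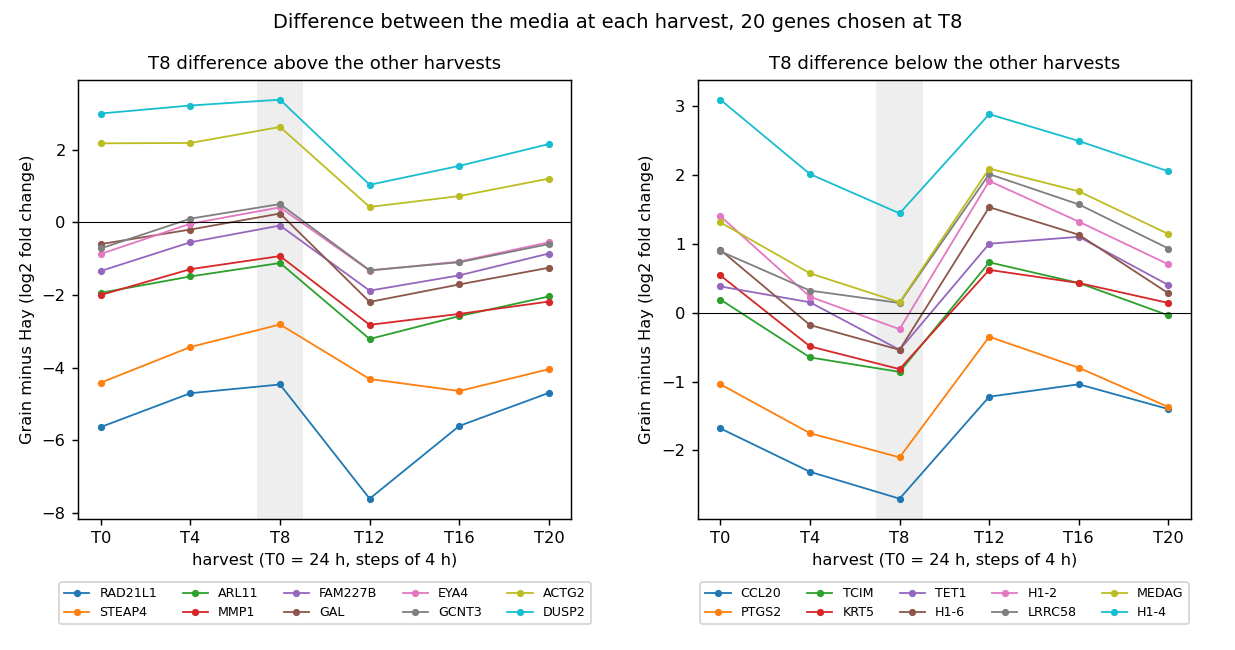
Fitted log2 difference, Grain minus Hay, at each of the 6 harvests for the 10 named genes with the largest positive (left) and the 10 with the largest negative (right) departure of T8, with T8 shaded. The genes were chosen with T8 outside the range of the other 5. GAL stands at -0.20 at T4, 0.24 at T8 and -2.19 at T12.

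Gene lists were counted in the same test, against 11.9% of all genes with a positive and 11.7% with a negative value. All 13 mitochondrially encoded mRNAs had a negative value, with a median of -0.43, and their median difference was -1.96 at T8 against -1.80 at T4, -1.29 at T12, -1.76 at T16, -1.62 at T20 and -1.66 at T0. Grain T8 stood a median of 0.70 and Hay T8 of 0.27 below the other harvests of their medium. Nuclear respiratory chain genes went the other way, with 11 of 17 positive and none negative. Their median difference was -0.05 at T8 and -0.16 over the others, but -0.05 at T4 as well. SDHA differed by -0.29 at T8 and -0.67 elsewhere.

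In dividing cell genes the media were less far apart at T8. Of 30 mitosis genes 17 had a negative value and none a positive one, with a median difference of 0.81 at T8 and 1.19 over the other harvests. TOP2A differed by 0.78 at T8 and 1.29 elsewhere. DNA replication genes had 13 negative and 4 positive values among 35. The chaperone list had 12 negative and 1 positive among 24, with HSPA5 at 2.44 against 2.75 elsewhere and CRELD2 as the positive one. The median difference of the chaperone list was 0.51 at T8 and at T20, and from 0.52 to 0.60 at the other harvests.

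Ribosomal protein genes had 23 positive and no negative values among 44, with a median of 0.64 at T8 and 0.51 over the others, though the medians at T0 and T4 were 0.63 and 0.62. Cholesterol synthesis genes had 9 positive and no negative values among 21, and their median of 0.46 at T8 lay below those of 0.54 at T0 and 0.50 at T4. Matrix genes had 18 negative and no positive values among 33, though their median difference of 0.35 at T8 lay above that of 0.26 at T4. Basal keratinocyte markers had 7 negative and no positive values among 12, with medians of -0.36 at T8 and 0.10 over the others. Their median at T4 was -0.31, near that of T8.

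Immediate early genes had 14 negative and 3 positive values among 27, with NR4A2, which overlaps GPD2, at -0.26 at T8 and 0.59 elsewhere. NRF2 genes had 12 negative and 2 positive values among 25, and HMOX1 went from a mean of -1.42 elsewhere to -2.06. Heat shock genes had 9 negative and 2 positive values among 20, with HSPA1A at -1.88 against -1.03. The median difference of the heat shock list was -0.45 at T8 and -0.42 at T4. Osmotic stress genes had 5 negative and 3 positive values among 15, integrated stress response genes 8 and 6 among 29, and MAP kinase feedback genes 5 and 5 among 17. Glycolytic genes had 10 negative and 4 positive values among 22.

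Glucocorticoid targets had 7 negative and 1 positive value among 18. Their median difference was -0.31 at T8 and -0.34 at T4, so at list level T8 was not set apart from T4. TSC22D3, a classical target, differed by -0.23 at T8 and 0.58 elsewhere, and SGK1 by -1.99 and -1.26. Core clock genes had 4 positive and 3 negative values among 18, the rest not passing the test. BMAL1 differed by 0.89 at T8 and 1.01 on average elsewhere, and PER2 by -0.83 and -0.82 (adjusted p = 0.986 for the departure). BHLHE40 differed by 0.32 at T8 and had a larger departure, of 0.73 (adjusted p = 4.33e-08). Clock output genes had 6 negative and 1 positive value among 15, with a median departure of -0.21.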

How the data were processed

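RNA from cultured sheep ruminal epithelial cells was sequenced paired-end after TruSeq RNA v2 preparation, which keeps no strand, per the labels' protocols. The deposited table holds whole-number read counts made by the authors for 35223 genes, not normalised. HISAT2 2.2.1, SAMtools 1.20 and StringTie 2.1.5 are named in the submitters' processing notes; no source used here says which of them made the counts or against which build. Of the identifiers, 2778 had no symbol; all 29910 symbols were matched to a RefSeq table of assembly ARS-UI_Ramb_v3.0, used only for names and overlaps. Promoter sequences were not analysed here. Some members of the lists are not reported here.

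Counts were filtered with filterByExpr (minimum count 10, minimum total 15), which left 22488 genes, scaled by TMM and tested with edgeR 4.0.16 (limma 3.58.1, R 4.3.3) quasi-likelihood tests on a mean for each of 12 groups in 36 libraries. Contrasts were Grain minus Hay at T8, that difference minus its mean at the other 5 harvests (the departure) or minus each alone, and T8 against the other harvests within a medium. Adjusted p-values are Benjamini-Hochberg values, two-sided, with a threshold of 0.05; the share of counts in RNA classes had an exact permutation test. Simulated counts were run for 22139 genes, of which 67, 67 and 66 were changed 1.2, 1.5 and 2-fold. Of these, 38, 36 and 33 had a mean of at least 5 CPM. At that level 60.5%, 97.2% and 100% were recovered at T8, and 52.6%, 94.4% and 100% in the departure test. Over all levels, 2.8% and 2.0% of calls were on unchanged genes. In the measured libraries, where 56.8% of genes were called at T8, these shares were not tested.

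Named genes had a symbol and at least 5 CPM: the 12 largest T8 rises and falls with libraries apart, the 4 largest each way in CPM, the 10 largest departures each way outside the range of the other harvests, the 4 smallest p with opposite sign, and, in each list and with no CPM minimum, up to 4 members by T8 p and 2 by departure p; other members are examples. Of 210 such genes, 69 overlap another annotated gene, and their reads cannot be told apart without strand. The 29 gene lists and 7 marker lists hold 819 members, of which 42 had no entry in the table. Members and lists were chosen with earlier results of these data known. Alternatives were DESeq2 1.42.0, its size factors, no low-count filter, a replicate block, the T8 libraries alone, each library left out and other reference harvests.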

Additional observations from a re-analysis of the deposited data

Results flagged for a closer look

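The T8 difference, Grain minus Hay, was unlike the mean of the other 5 harvests in 24 named genes by the tested contrast (edgeR, adjusted p at most 0.05). By how much it stood above that mean on the log2 scale was 1.43 for GAL, 1.36 for STEAP4, 1.28 for ACTG2, 1.24 for MMP1 and 1.23 for GCNT3. It was 1.19 for RAD21L1, DUSP2 and EYA4, and 1.13 for ARL11 and FAM227B.

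Values below the mean were -1.35 for H1-2, -1.28 for H1-6, -1.23 for MEDAG, -1.17 for CCL20, -1.14 for TET1, -1.07 for KRT5 and H1-4, and -1.04 for PTGS2. They were -1.01 for LRRC58, -0.99 for TCIM, -0.96 for VCAN, -0.73 for PTMA, -0.68 for SFPQ and -0.58 for HNRNPA1. In none of the 24 did the T8 difference pass the test against T4 alone. All 24 were picked for the size or the p of this very value.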

How the results depend on the processing

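No called result changed direction under the alternatives run. Among the genes not called, DESeq2 and its size factors turned CLOCK from 0.01 to -0.04, PDIA3 from 0.02 to -0.03 and SBSN from 0.03 to -0.02, and leaving out single libraries turned these 3 as well, to -0.03 at most. Of the named genes, the T8 call of H1-2, LRRC58 and TET1 was lost in some, as given above, and that of CD14, LYZ, DSG1 and GRHL3 when single libraries were left out. The T8 count of 12766 genes was 12881 with DESeq2, 12772 with its size factors, 12396 without the filter, 13014 in the 6 T8 libraries alone and 11981 to 12109 with 1 library left out; 95.8% of the original calls were shared with the size factors. Scaling tilted the split: 52.1% of calls were higher with TMM and 47.8% with DESeq2 size factors, which shifted the median by -0.05. The majority of calls turned with it: 6645 higher and 6121 lower became 6128 and 6753 with DESeq2, and the departure's 2667 positive and 2634 negative became 2508 and 3048. Replicate numbers did not pair the libraries (correlations of same-numbered deviations at T8 of 0.00245, 0.0134 and 0.0239), and with a replicate block 12711 genes were called at T8 and 5265 in the departure test, and 12810 with that block in the T8 libraries alone. The departure count of 5301 was 4380 to 4656 with 1 library left out, and its positive part fell to 1754 without T12. Against single harvests, chosen after seeing the data, the departure gave 1545 positive genes against T0, 4073 against T12, 4 genes against T4 (2 positive, 2 negative) and 2520 against T20 (1092 positive, 1428 negative). Depth limits genes under 5 CPM most: over all levels 34.3% of 1.2-fold changes were recovered at T8.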

Other observations

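Few genes were called in their T8 direction at T8 only. Of 22488 tested, 313 (1.39%) were called higher in Grain at T8 and higher at no other harvest. Another 339 (1.51%) were called lower at T8 and lower at no other harvest. Of these, 172 and 184 also passed the departure test. Genes called in the opposite direction at another harvest were not excluded from these counts. In 350 genes called higher (1.56%) and 313 called lower (1.39%) at T8, the call at T4 or T12 was in the opposite direction.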
